A study of Bos taurus with 27 samples.

Results

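The transcripts described here encode the enzymes and carriers that bring pyruvate into the mitochondrion, oxidise it and run the tricarboxylic acid (TCA) cycle. The set held 41 genes, taken by symbol from a list of TCA cycle, pyruvate dehydrogenase, anaplerotic, transamination, carrier and branched-chain keto acid genes, among the 32637 genes counted. RNA sequencing counts were analysed for 27 pools of bovine (Bos taurus) blastocysts, each pool made from the RNA of 2 blastocysts produced in vitro, at the expanding or expanded stage and of embryo quality score 1. The oocytes had been matured in medium that held fluid of preovulatory follicles classed as of greater or of lesser maturity, and all embryos were then cultured alike. The labels give neither the follicular fluid treatment nor the fertilization replicate of a pool, so the pools were not assigned to a treatment and are described together as 1 series, by the lowest, median and highest pool. Pooling the RNA of 2 embryos means that a pool can mix embryos of different sex and of different cell number.

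Pyruvate enters the mitochondrial matrix through the mitochondrial pyruvate carrier and is converted to acetyl-CoA by the pyruvate dehydrogenase complex, which pyruvate dehydrogenase kinases switch off by phosphorylation and a phosphatase switches on again. The TCA cycle then oxidises the acetyl group, and the reduced cofactors feed the respiratory chain. Preimplantation embryos rely on pyruvate and lactate early in cleavage, and blastocysts, which consist of an outer trophectoderm and an inner cell mass, also use glucose and amino acids.

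Pools held 10517606 to 44253564 counts on genes (median 22293594). Abundance is given as CPM, the count scaled to a library total of 1000000, and 1 CPM stood for 10.5 to 44.3 counts. Tests used the 12310 genes that reached 1 CPM in 12 pools or more, called retained genes here. The label of blastocyst was checked against lineage markers. The summed trophectoderm markers, 8 of 8 of which were retained, were between 16285 and 39889 CPM. Most of that sum came from the keratins KRT8 and KRT18, with medians of 18607 and 7937 CPM. DAB2 followed with 935 CPM, and CDX2 was lowest, between 1.97 and 9.42 CPM. The 6 epiblast markers in the table were all retained and summed to between 246 and 888 CPM. Most of that sum was POU5F1, with a median of 399 CPM, while SOX2 and LIN28A had medians of 6.86 and 3.59 CPM. Of 6 hypoblast markers, 4 were retained, with sums between 346 and 1554 CPM. Their sum came mostly from FN1 and GATA6, with medians of 712 and 211 CPM. GATA4, with a median of 0.896 CPM, and SOX17, at 0 in 14 pools, were not retained. Markers of other cells were low, with sums of 13.9 to 82.1 CPM for 9 leukocyte genes, 3.46 to 33.7 CPM for 8 cumulus cell genes and 0 to 20.4 CPM for 4 sperm genes, of which ODF1 was at 0 in every pool. Of 6 oocyte genes, 5 were retained, and their sum was 22.4 to 111 CPM.

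Of the 41 genes, 39 were retained and 37 reached 1 CPM in every pool, as did 72.6% of all retained genes. DLST and PDK4 were not retained. The median over pools was at least 100 CPM for 24 of the 41 genes, a level reached by 14.7% of retained genes. It lay above 14.4 CPM, the median of all retained genes, for 31 of the 41. Together the 41 genes took 0.839% of the counts of the median pool, and their sum was between 7083 and 9920 CPM. The libraries were primed at the poly(A) tail and CPM is not divided by transcript length, so the order of genes given here is an order of counts.

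**Figure D1:**
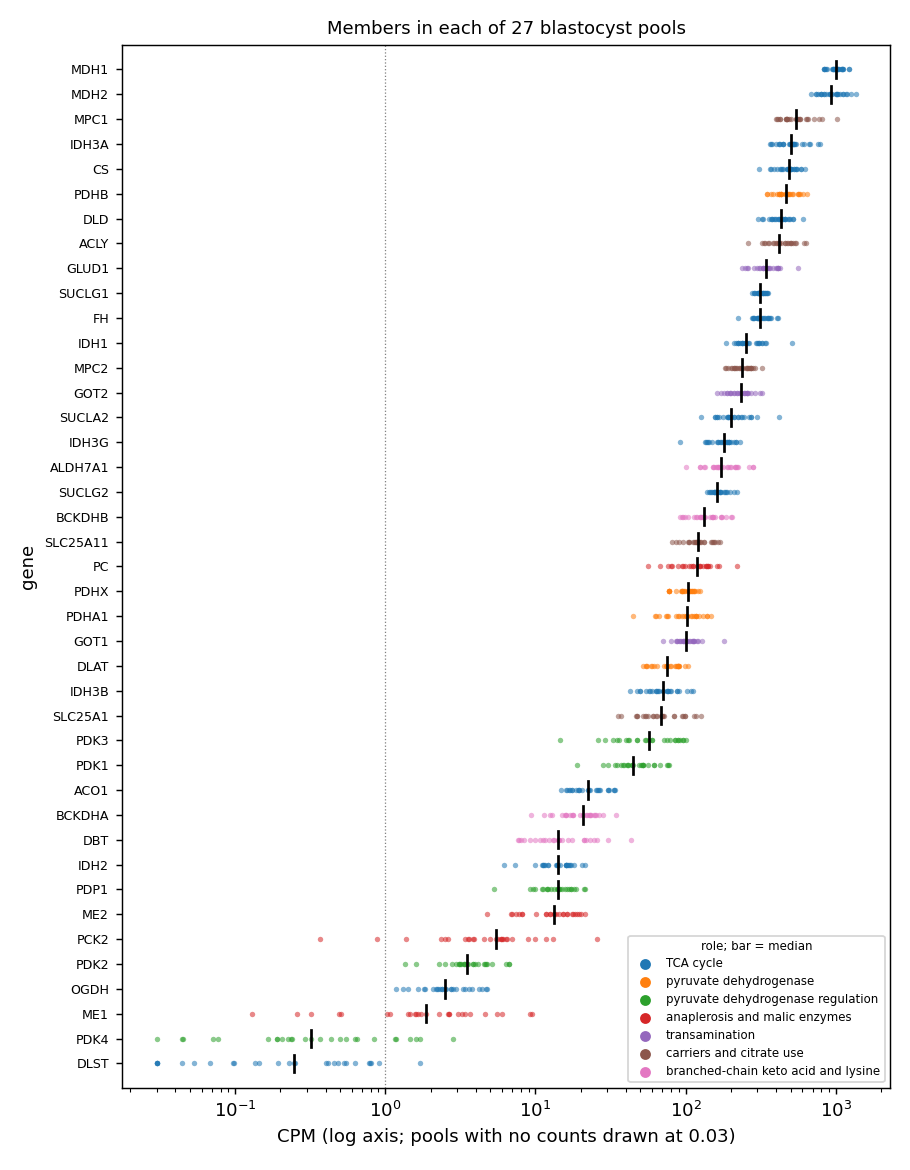
Abundance of the 41 genes in each of the 27 pools, with 1 point per pool, CPM on a log axis, colour for the role of the gene and a black bar at the median. Medians run from 0.245 CPM for DLST to 997 CPM for MDH1, and the dotted line marks 1 CPM.

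Among the enzymes of the cycle itself, the malate dehydrogenases were the most counted. MDH1, the cytosolic form, was at 833 CPM in its lowest pool, 997 CPM at the median and 1225 CPM in its highest. MDH2, the mitochondrial form that regenerates oxaloacetate, was at 679, 929 and 1354 CPM in the lowest, median and highest pool. MDH1 made up 51.8% of the counts of both forms at the median and more than 50% in 17 of the 27 pools, so neither form led throughout. CS, which condenses acetyl-CoA with oxaloacetate to citrate, was at 306 CPM in pool 9, 491 CPM at the median and 627 CPM in pool 1. FH, the fumarase, ranged from 225 to 412 CPM around a median of 311 CPM. ACO1, the cytosolic aconitase that also acts as an iron regulatory protein, was far lower, between 14.9 and 33.7 CPM.

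The isocitrate dehydrogenases differed in level by form. IDH1, the cytosolic NADP-dependent form, ranged from 185 to 514 CPM around a median of 251 CPM, against a median of 14.2 CPM for the mitochondrial IDH2. IDH1 held between 91.3% and 97.5% of the counts of both forms. The NAD-dependent enzyme of the cycle is built from alpha, beta and gamma subunits encoded by IDH3A, IDH3B and IDH3G. IDH3A, the catalytic alpha subunit on chromosome 21 (30538337 to 30554570, ARS-UCD2.0), was at 367, 504 and 779 CPM in the lowest, median and highest pool. IDH3B on chromosome 13 (52514490 to 52519431) was at 42.4, 70.5 and 112 CPM. IDH3G on chromosome X (37002946 to 37011460) was at 91.9, 179 and 231 CPM. IDH3A was the most counted subunit in every pool, with 60.4% to 76.8% of the counts of the subunits, and the gamma share moved most, from 13.5% in pool 21 to 31.9% in pool 41.

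The oxoglutarate dehydrogenase complex, which converts 2-oxoglutarate to succinyl-CoA, had low counts on OGDH and DLST, which encode its E1 and E2 components. OGDH ranged from 1.18 to 4.76 CPM around a median of 2.48 CPM. DLST was at 0 in 4 pools, at 0.245 CPM at the median and at 1.70 CPM in its highest pool, where 3 counts correspond to between 0.0678 and 0.285 CPM depending on the pool. DLD, the E3 component that the complex shares with pyruvate dehydrogenase and branched-chain keto acid dehydrogenase, ranged from 303 to 609 CPM around a median of 432 CPM. Counts of the components of this complex were thus uneven in all pools.

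Succinyl-CoA synthetase pairs a common alpha subunit, SUCLG1, with a beta subunit that sets the nucleotide, SUCLG2 for GTP and SUCLA2 for ATP. SUCLG1 was at 277 CPM in its lowest pool, 312 CPM at the median and 355 CPM in its highest. SUCLG2 was at 140, 162 and 218 CPM. SUCLA2 was at 126 CPM in pool 31, 201 CPM at the median and 419 CPM in pool 32. The ATP-type subunit had the higher count of the 2 beta subunits in 26 of 27 pools, with a share of 44.7% to 68.1%.

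In the pyruvate dehydrogenase complex, the E1 beta subunit PDHB was the most counted gene, at 346 to 643 CPM with a median of 464 CPM. PDHA1, the E1 alpha subunit on chromosome X (123763235 to 123786122), was at 44.7 CPM in pool 31, 101 CPM at the median and 146 CPM in pool 33. PDHB held between 76.3% and 90.7% of the counts of both E1 subunits. DLAT, the E2 acetyltransferase, was at 52.4, 75.2 and 103 CPM in the lowest, median and highest pool. PDHX, the component that binds E3 to the core, ranged from 77.1 to 125 CPM around a median of 104 CPM.

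The regulators of the complex were less abundant. PDK1, a kinase that inactivates E1, was at 18.8 CPM in pool 12, 44.8 CPM at the median and 77.7 CPM in pool 31. PDK3, a kinase of the same family on chromosome X (118815748 to 118898248), was at 14.6 CPM in pool 31, 57.1 CPM at the median and 101 CPM in pool 22. PDK2 did not exceed 6.68 CPM and PDK4 did not exceed 2.80 CPM. The phosphatase subunit PDP1, which reverses the phosphorylation, ranged from 5.33 to 21.4 CPM around a median of 14.1 CPM.

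The kinase genes PDK1 and PDK3 exchanged the leading position between pools. PDK3 held more than 50% of the counts of the 4 kinase genes in 17 pools and PDK1 did so in 10. The extremes were pool 12, with 80.9% PDK3 and 15.8% PDK1, and pool 31, with 14.3% PDK3 and 76.4% PDK1. PDK2 held between 1.04% and 6.53% of the kinase counts, and PDK4 at most 2.75%.

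**Figure D2:**
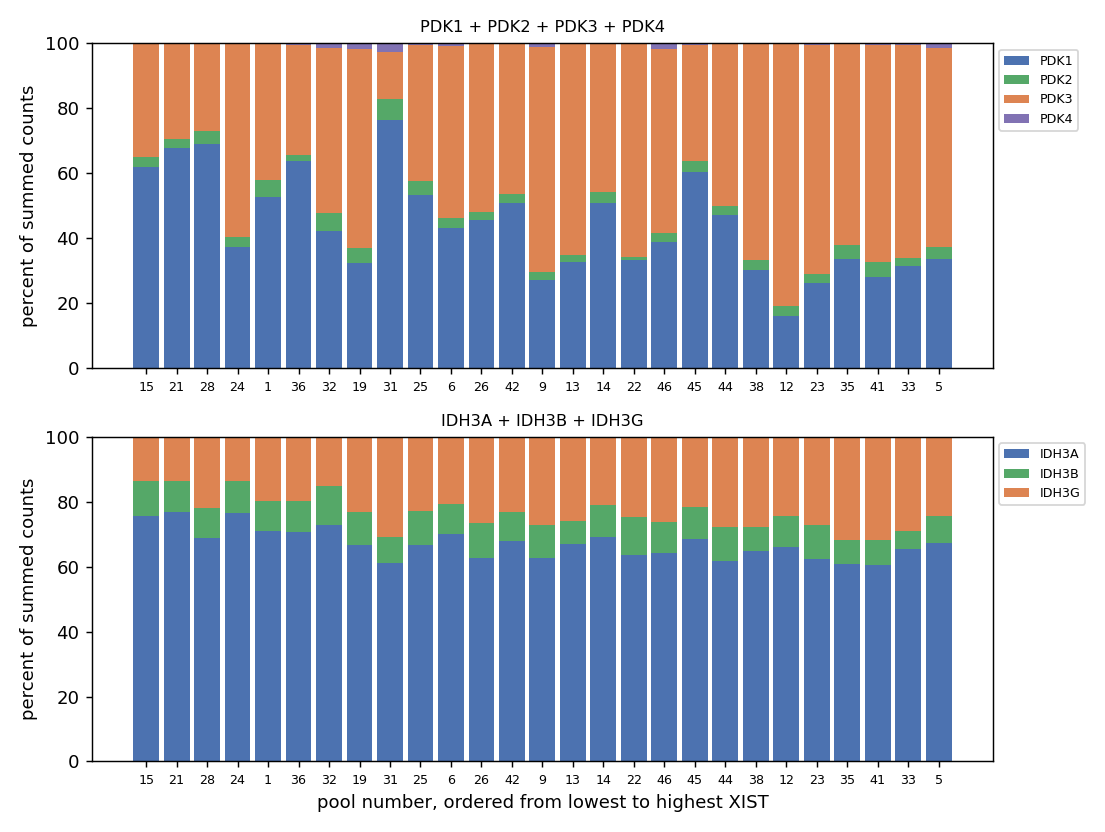
Share of the summed counts, in percent, taken by each pyruvate dehydrogenase kinase gene (top) and each NAD-dependent isocitrate dehydrogenase subunit gene (bottom) in each of the 27 pools, ordered from the lowest to the highest XIST. PDK3 ranges from 14.3% to 80.9% of the kinase counts, while IDH3A stays between 60.4% and 76.8% of the subunit counts.

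Genes that refill the cycle or draw on it varied widely. PC, which carboxylates pyruvate to oxaloacetate, ranged from 56.3 to 219 CPM around a median of 119 CPM. PCK2, the mitochondrial phosphoenolpyruvate carboxykinase, was at 0.367 CPM in pool 33, 5.45 CPM at the median and 25.9 CPM in pool 21. ME1, the cytosolic NADP-dependent malic enzyme, was at 0.130 CPM in pool 31, which was 4 counts, at 1.87 CPM at the median and at 9.50 CPM in pool 9. ME2, the mitochondrial malic enzyme, was between 4.72 and 21.5 CPM and exceeded ME1 in every pool.

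The transamination genes were expressed throughout. GLUD1, the glutamate dehydrogenase that yields 2-oxoglutarate, ranged from 236 to 560 CPM around a median of 343 CPM. The mitochondrial aspartate aminotransferase GOT2 was between 161 and 321 CPM, and the cytosolic GOT1 between 70.8 and 179 CPM. GOT1 remained below 50% of the counts of both forms in every pool, with a highest share of 43.4%.

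Among the carriers, MPC1, a subunit of the pyruvate carrier, was at 397 CPM in pool 21, 540 CPM at the median and 1020 CPM in pool 15. Its partner MPC2 was between 184 and 325 CPM and held the smaller share of the pair in each of the 27 pools. SLC25A11, which exchanges 2-oxoglutarate for malate, was at 80.7, 120 and 168 CPM in the lowest, median and highest pool. SLC25A1, which exports citrate, was between 35.5 and 126 CPM. ACLY, which cleaves citrate in the cytosol to acetyl-CoA for lipid synthesis, ranged from 261 to 634 CPM around a median of 420 CPM.

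The branched-chain keto acid dehydrogenase, which resembles pyruvate dehydrogenase and oxidises the keto acids of leucine, isoleucine and valine, was uneven in its components. BCKDHB, the E1 beta subunit, was at 91.1, 132 and 205 CPM, and BCKDHA, the E1 alpha subunit, was between 9.35 and 34.2 CPM. DBT, the E2 component, was at 7.69 CPM in pool 46, 14.2 CPM at the median and 43.4 CPM in pool 32. ALDH7A1, an aldehyde dehydrogenase of lysine breakdown, was at 100 CPM in pool 9, 173 CPM at the median and 281 CPM in pool 32.

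Of 36 further genes of these pathways, all were in the table and 31 were retained. LDHB, a lactate dehydrogenase subunit, had the highest median, 741 CPM, followed by SDHD, a membrane anchor of succinate dehydrogenase, with 640 CPM and SLC16A1, a monocarboxylate transporter, with 633 CPM. OGDHL, SLC16A3, PCK1, ME3 and GLS2 were not retained. All 4 succinate dehydrogenase subunit genes had medians over 100 CPM.

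Variation between pools was described by the ratio of the third to the first quartile of CPM, with no test. The median ratio over the 39 retained genes was 1.30, compared with 1.51 over all retained genes. Low genes spread more, and at a matched level the ratios were close, since the 31 genes of the set with a median of at least 20 CPM had a median ratio of 1.29 and all 5335 retained genes at that level had one of 1.30. The highest pool was at most 2 times the lowest for 10 of those 31 genes (32.3%), compared with 26.8% of the 5335 genes. Differences between pools were in every case larger than counting error, with a chi-square per degree of freedom of at least 8.99 for each gene of the set.

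The extremes of that spread were a succinyl-CoA synthetase subunit and a kinase. SUCLG1 had a quartile ratio of 1.08, and only 0.112% of the 5335 genes had a lower ratio. SUCLG2 and MDH1 followed, each with a ratio of 1.14. The widest ratios among the retained genes were those of ME1 (2.65), PDK3 (2.10) and DBT (1.91). ME1 had low counts, with a median of 1.87 CPM, and DBT had a median of 14.2 CPM, close to the 14.4 CPM of all retained genes. PDK3 had a median of 57.1 CPM, and its ratio was above those of 98.0% of the 5335 genes with at least 20 CPM.

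**Figure D3:**
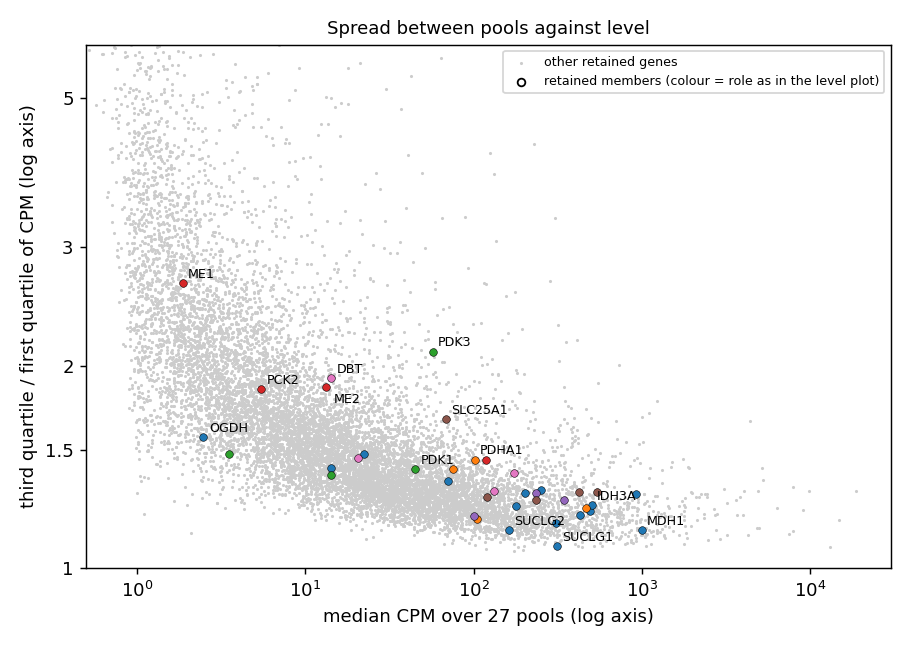
Ratio of the third to the first quartile of CPM over 27 pools against the median CPM, both on log axes, for the 39 retained genes of the set (outlined, coloured by role) and the other retained genes (grey). The ratio axis ends at 6, which leaves 281 of the 12310 retained genes undrawn, and PDK3 at 2.10 lies above and SUCLG1 at 1.08 below most genes of like level.

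A few pools carried many of the extreme values. Pool 32 was the highest of the 27 pools for 11 of the 39 retained genes (28.2%) and the lowest for none of them, and it was the highest for 7.25% of all retained genes. Its sum over the 41 genes, 9920 CPM, was the highest of the series. Pool 31 was the lowest for 6 of the 39 genes (15.4%), as was pool 9, and these pools were the lowest for 17.9% and 11.6% of all retained genes.

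Since no treatment was assigned, the 39 retained genes were set against measured properties of the pools. The first was XIST, the RNA of the inactive X chromosome of female cells, which was at 0.0484 CPM in pool 15, 11.5 CPM at the median and 35.4 CPM in pool 5. The summed counts of 7 Y-linked genes separated the pools, with 18 pools between 18.9 and 197 CPM and 9 pools between 0.430 and 1.65 CPM. XIST reached from 0.0484 to 19.6 CPM in the former and from 12.3 to 35.4 CPM in the latter. Fewer cells of a kind and less RNA per cell cannot be told apart in such pools. Slopes were fitted with edgeR's quasi-likelihood test and counted over 12309 genes, without XIST itself. They are given as the log2 change in abundance per 1 log2 unit of XIST, ± SE. Benjamini-Hochberg adjustment was over all retained genes, with a call at an adjusted p of 0.05 or less.

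XIST was related to 10 of the 39 genes (25.6%), against 4.37% of all genes tested. The set is more highly counted, with a median of at least 100 CPM for 24 of 41 genes, against 14.7% of retained genes. The share of calls among genes of like level was not calculated. The calls of the set were 2 genes higher and 8 lower with XIST. Both genes called as higher were on chromosome X, on which 37.3% of the 445 genes tested were called as higher. The 8 called as lower were among the 36 genes of the set that are not X-linked, while 2.00% of all genes not on X were called as lower. Of the 36 slopes, 33 were below 0, while 48.6% of the slopes of all genes tested were above 0. Over all genes, 301 were called as higher and 237 as lower, and the median slope was -0.0028. Without scaling of the library sizes beyond the total count, the split over all genes was 370 higher and 86 lower, and that of the set 2 higher and 5 lower.

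PDK3 had the steepest rise among the called genes. In pools 15 and 21, the lowest in XIST, it was at 34.7 and 33.0 CPM, and in pools 33 and 5, the highest in XIST, at 85.3 and 75.3 CPM. Its slope was 0.26 ± 0.054 (edgeR adjusted p = 0.00374), which is a fitted 2.52-fold rise over the range of XIST. IDH3G was at 137 and 91.9 CPM in the lowest pools in XIST and at 231 and 175 CPM in the highest. Its slope was 0.093 ± 0.027 (edgeR adjusted p = 0.0427). PDHA1, the other X-linked gene of the set, had a slope of 0.11 ± 0.038 that did not pass the test (edgeR adjusted p = 0.0933). Ordered by p, these genes were 70th, 164th and 206th of the 445 X-linked genes.

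The alpha and beta subunits of the same isocitrate dehydrogenase moved opposite to the X-linked gamma subunit. IDH3A was at 762 CPM in pool 15 and 524 CPM in pool 21, and at 520 CPM in pool 33 and 484 CPM in pool 5. Its slope was -0.13 ± 0.028 (edgeR adjusted p = 0.00500). IDH3B was at 109 and 66.2 CPM in pools 15 and 21 and at 42.4 and 59.8 CPM in pools 33 and 5, with a slope of -0.15 ± 0.035 (edgeR adjusted p = 0.0122). For both genes the pools lowest in XIST lay above the highest, though for IDH3A pools 21 and 33 differed by little.

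The branched-chain keto acid dehydrogenase genes DBT and BCKDHB also fell. DBT was at 30.6 and 25.7 CPM in pools 15 and 21 and at 11.6 and 9.99 CPM in pools 33 and 5. Its slope was -0.26 ± 0.059 (edgeR adjusted p = 0.00801), a fitted fold of 0.397 over the range of XIST. BCKDHB had a slope of -0.14 ± 0.034 (edgeR adjusted p = 0.0141), and BCKDHA one of -0.032 ± 0.051, which did not pass the test.

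The other called genes belong to the cycle, the pyruvate dehydrogenase core and a carrier. SLC25A11 had a slope of -0.12 ± 0.029 (edgeR adjusted p = 0.00981) and SUCLA2 one of -0.13 ± 0.033 (0.0228). For CS the slope was -0.087 ± 0.023 (edgeR adjusted p = 0.0245) and for DLAT it was -0.11 ± 0.031 (0.0404). In each of these genes the fitted fold over the range of XIST was between 0.636 and 0.734. The 29 genes that were not called had slopes between -0.34 and 0.16, and the most negative was that of PCK2 (-0.34 ± 0.10, edgeR adjusted p = 0.0510). PDK1 had a slope of -0.13 ± 0.049 (edgeR adjusted p = 0.108). Of the 31 further pathway genes, none was called as higher with XIST and 3 were called as lower, among them SLC25A13 and SDHD, with slopes of -0.24 and -0.10.

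**Figure D4:**
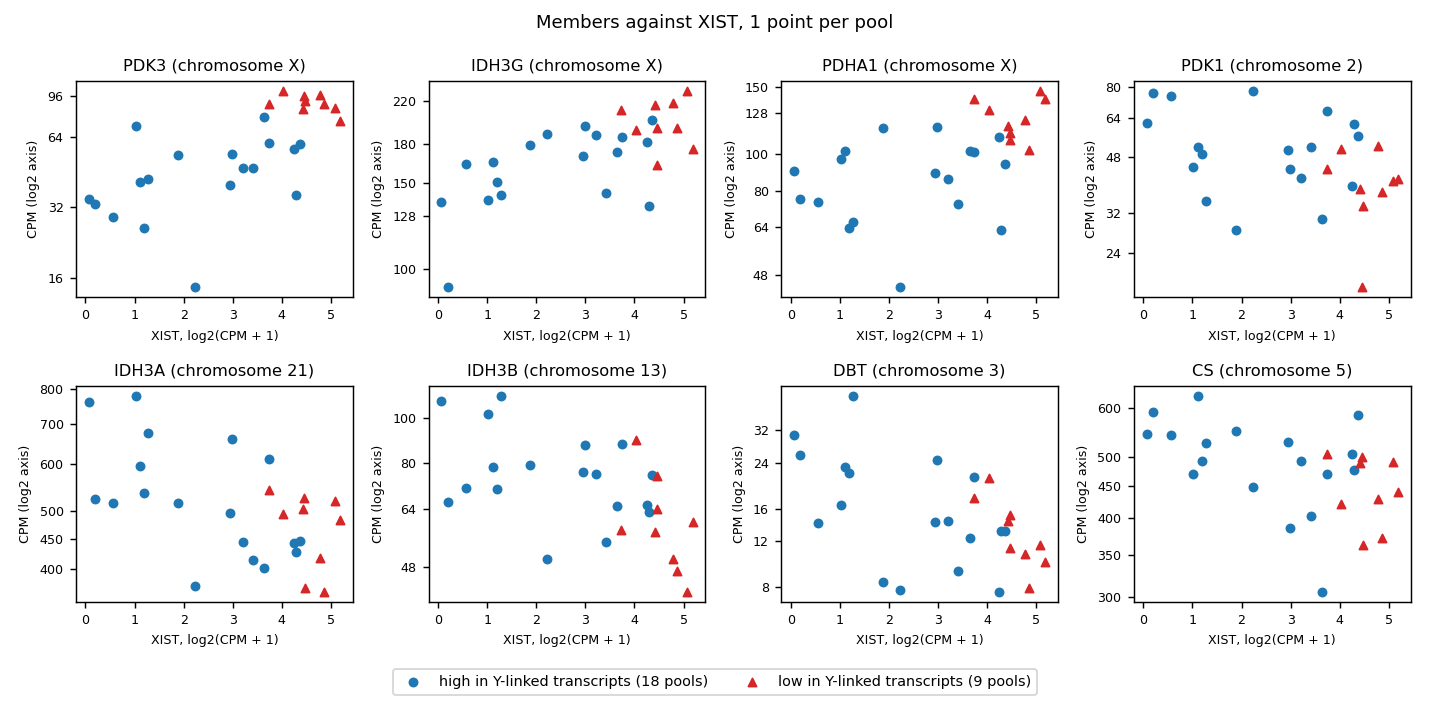
CPM on a log2 axis of 8 genes of the set against XIST as log2(CPM + 1), with 1 point per pool and symbols for the 18 pools high and the 9 pools low in Y-linked transcripts. PDK3 lies at 34.7 and 33.0 CPM in the pools lowest in XIST and at 85.3 and 75.3 CPM in the highest, while DBT runs the other way, from 30.6 and 25.7 CPM to 11.6 and 9.99 CPM.

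**Figure D5:**
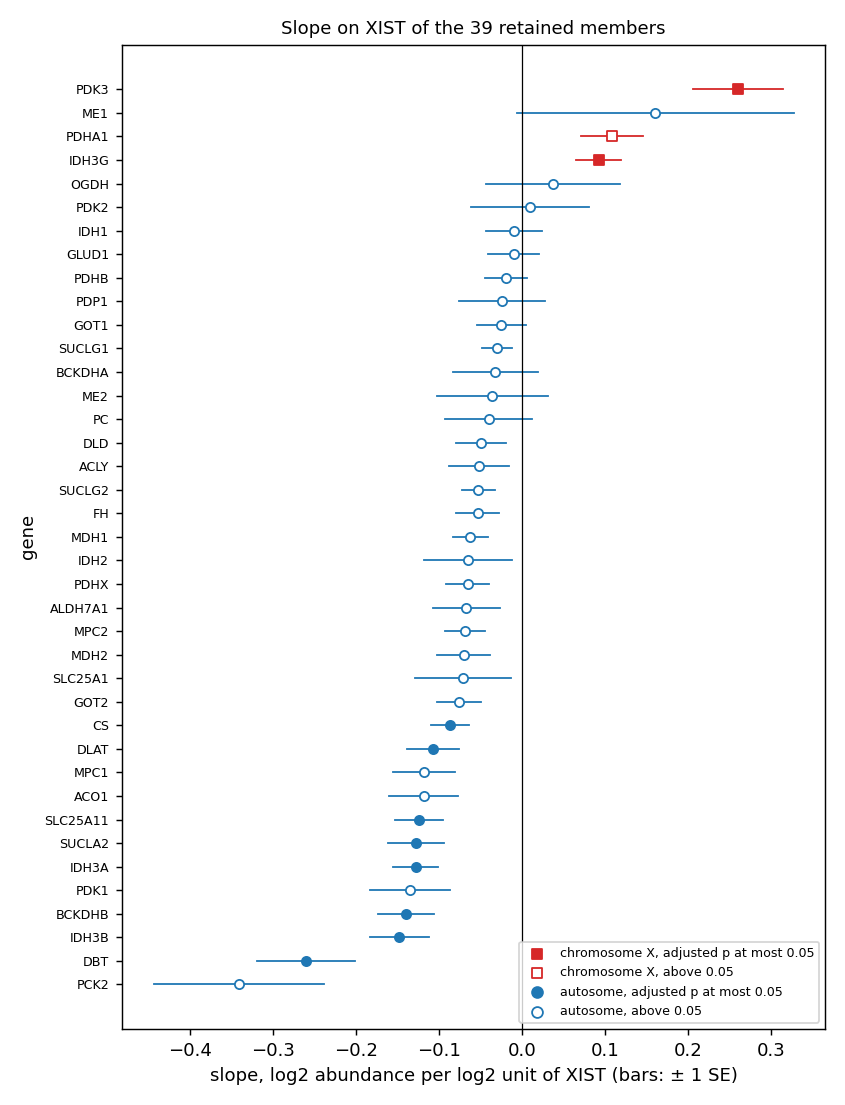
Slope on XIST, in log2 abundance per log2 unit of XIST, with bars of 1 SE on each side, for the 39 retained genes of the set. Filled symbols mark an adjusted p of 0.05 or less and squares mark genes on chromosome X. Of the 36 genes not on X, 33 lie below 0, while 48.6% of the slopes of all genes tested were above 0.

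These relations were not called within either cluster of pools. Among the 18 pools high in Y-linked transcripts, 0 of 12309 genes were called by edgeR, 993 passed 0.05 without adjustment, and 12 of the 39 genes of the set were among them. The 10 called genes kept the sign of their slope there, with -0.14 for IDH3A (edgeR adjusted p = 0.256), -0.27 for DBT (0.337) and 0.14 for PDK3 (0.647). Among the 9 pools low in Y-linked transcripts, 0 genes were called by edgeR and 844 passed 0.05 without adjustment, 5 of them in the set. There, PDK3 had a slope of -0.098 (edgeR adjusted p = 0.931) and BCKDHB one of 0.33 (0.770), both opposite in sign to those over all pools. The other 8 called genes kept their sign, with -0.71 for DBT, -0.37 for IDH3B and -0.37 for SUCLA2. Slopes were above 0 for 11 of the 39 genes in the 18 high pools and for 21 of the 39 in the 9 low pools. Over all pools they were above 0 for 6 of the 39. The shares over all genes tested were 50.8% in the high pools, 50.9% in the low pools and 48.6% over all pools. Over the 10 alternative settings, apart from pools left out in turn, the edgeR or DESeq2 adjusted p ranged from 0.000137 to 0.931 for PDK3, from 0.00137 to 0.940 for IDH3A, from 0.00154 to 0.647 for DBT and from 0.00502 to 0.770 for BCKDHB.

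Leaving out 1 pool at a time, the count of called genes in the set was between 5 and 12, and PDK3, IDH3A, DBT, BCKDHB and SLC25A11 were called each time. Without pool 15, the lowest in XIST, 5 genes of the set and 340 of all genes were called, and IDH3B (edgeR adjusted p = 0.0706), SUCLA2 (0.0729), CS (0.0736), DLAT (0.0961) and IDH3G were no longer called. CS was also lost without pool 1. DLAT was lost in turn without pools 1, 12, 15, 23, 24, 28, 33, 35, 36, 41 and 45. IDH3G was lost without any of pools 1, 12, 13, 15, 21, 22, 24, 25, 32, 33, 35, 36, 38, 41 and 44, with an adjusted p of up to 0.118. PDHA1 was called only without pool 45 (edgeR adjusted p = 0.0429).

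Other measures moved with XIST over the 27 pools. Of 11 relations computed, the interferon tau sum (Spearman rho 0.477, Pearson r 0.495, r without the 2 farthest pools 0.465), the cumulus marker sum (rho 0.474, r 0.403, r without the 2 farthest pools 0.516) and the trophectoderm marker sum (rho -0.474, r -0.357, r without the 2 farthest pools -0.392) each had an adjusted permutation p of 0.0498 for rho. For r, the adjusted permutation p was 0.0971 for interferon tau and 0.150 for both marker sums. Leukocyte markers (rho 0.0781, permutation p adjusted 0.851), sperm markers (rho 0.325, 0.216) and the total count (rho 0.0171, 0.933) were not called. Nor was the TMM factor over all genes, which scales library sizes (rho 0.371, permutation p adjusted 0.157, r 0.393, permutation p adjusted 0.150). The part of such scaling in the slopes was examined only by the fit without scaling given above. In the 18 high pools of the Y-linked split rho was 0.445 for interferon tau, 0.00722 for the cumulus sum and -0.209 for the trophectoderm sum, with an adjusted permutation p of 0.197, 0.980 and 0.483 over 6 relations. In the 9 low pools rho was 0.900 for interferon tau (adjusted p = 0.0122, exact permutation test), 0.483 for the cumulus sum (0.388) and 0.333 for the trophectoderm sum (0.483), the last opposite in sign to that over all pools. Of 8 cumulus markers, 3 were retained, AMH was at 0 in 6 pools and FOXL2 in 26. FSHR had the highest median of them, 8.89 CPM, and the trophectoderm sum was mostly KRT8 and KRT18. With interferon tau in the model, a setting chosen after seeing the data, 184 genes and 2 of the set were called, IDH3A (-0.12, edgeR adjusted p = 0.0429) and PDK3 (0.23, 0.0436). The other called genes kept the sign of their slope in that model, with -0.15 for IDH3B, -0.14 for BCKDHB, -0.12 for SUCLA2, -0.22 for DBT and -0.059 for CS. The part of the trophectoderm and cumulus marker sums in these relations was not tested. Relations were not recomputed within treatments or fertilization replicates, neither of which was assigned. The study lists IDH3A, DBT and ALDH7A1 as more abundant in the greater maturity treatment. The part of treatment in the slopes and correlations given here could not be tested.

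Interferon tau, the pregnancy recognition signal that trophectoderm secretes, was the next measure. Summed over 3 genes it ran from 7.21 to 589 CPM (median 40.9 CPM). In the fit on interferon tau, 1 of the 39 genes was called, against 2.27% of 12309 genes. This gene was CS, with a slope of -0.097 ± 0.026 per log2 unit (edgeR adjusted p = 0.0415). The call was lost without any of pools 1, 5, 6, 9, 15, 23, 25, 26, 28, 32, 41, 42 and 44, with an adjusted p of 0.219 without pool 9. ME1 had a slope of 0.43 that did not pass the test (edgeR adjusted p = 0.0621). LDHA, a lactate dehydrogenase subunit, was the only one of 31 further pathway genes called, with a slope of 0.17 ± 0.041 (edgeR adjusted p = 0.0232).

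The balance of lineages was measured as the mean log2(CPM + 1) of epiblast markers minus that of trophectoderm markers. It was related to 0 of the 39 genes by edgeR and to 1.21% of 12296 genes, and 5 genes of the set passed 0.05 without adjustment. DESeq2 also called 0 genes of the set. Of the further genes, the branched-chain keto acid dehydrogenase phosphatase PPM1K was higher with the epiblast balance (0.55 ± 0.14, edgeR adjusted p = 0.0430) and the kinase BCKDK of the same complex was lower (-0.48 ± 0.11, edgeR adjusted p = 0.0226). Total count was related to 0 of the 39 genes and to 0% of 12310 genes by edgeR, with 331 genes at an unadjusted p up to 0.05.

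Subunits of an enzyme, and forms of an enzyme in different compartments, were then correlated over the 27 pools in 24 pairs. Of these, 4 passed an adjusted permutation p of 0.05. The beta subunits SUCLG2 and SUCLA2 rose and fell together (rho 0.670, adjusted permutation p = 0.00324, r 0.637, adjusted permutation p = 0.00504, r without the 2 farthest pools 0.558). So did IDH3A and IDH3B (rho 0.664, adjusted permutation p = 0.00324, r 0.738, r without the 2 farthest pools 0.640), where the permutation p of r, 1e-05, is the smallest that 100000 permutations can give. PDHX and DLD, partners in the pyruvate dehydrogenase complex, were also related by rho (0.503, adjusted permutation p = 0.0492), but not by r (0.476, adjusted permutation p = 0.0705, and 0.498 without the 2 farthest pools). PDK1 and PDK3 were opposed (rho -0.533, adjusted permutation p = 0.0397, r -0.611, adjusted permutation p = 0.00608, r without the 2 farthest pools -0.505).

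Leaving out each pool in turn left the IDH3A-IDH3B and SUCLG2-SUCLA2 correlations called in all 27 cases. The PDK1-PDK3 correlation lost its call without pools 1, 12, 15, 21, 23, 28, 31 or 45, with rho between -0.620 and -0.477 over all 27 cases, and that of PDHX and DLD lost it in 19 cases (highest adjusted permutation p = 0.119). These 4 pairs were also correlated within the clusters of pools, which was chosen after seeing the data. In the 18 pools high in Y-linked transcripts rho was 0.880 for IDH3A and IDH3B, 0.635 for PDHX and DLD, 0.591 for SUCLG2 and SUCLA2 and -0.552 for PDK1 and PDK3, with adjusted permutation p of 8e-05, 0.0220, 0.0220 and 0.0311 over 8 relations. In the 9 other pools rho was 0.833 for SUCLG2 and SUCLA2 (adjusted p = 0.0220, exact permutation test), 0.150 for IDH3A and IDH3B, 0.233 for PDHX and DLD and 0.167 for PDK1 and PDK3. The last 3 had an adjusted p of 0.708 by the exact permutation test, and the difference between the clusters was not tested.

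The other 20 pairs did not pass. IDH3G was not related to IDH3A (rho -0.186, r -0.256) or IDH3B (rho -0.381, r -0.365), with adjusted permutation p for rho of 0.652 and 0.175. PDHA1 and PDHB, which form the E1 heterotetramer, had a rho of 0.415 and an r of 0.407 (adjusted permutation p = 0.139 and 0.125, r without the 2 farthest pools 0.257). Without pool 32 their rho was 0.540, which passed (adjusted permutation p = 0.0354), and this was the only gain of a call among these pairs when each pool was left out. The value of rho was 0.231 for MPC1 and MPC2, 0.0635 for MDH1 and MDH2, 0.0116 for SUCLG1 and SUCLG2 and 0.0104 for GOT1 and GOT2. A p above the threshold does not show that such genes vary independently.

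Over all 741 pairs of the 39 retained genes the median rho was 0.106, and 64.4% of the pairs were positive. Over all pairs of the 12310 retained genes the median was 0.0250 and 54.1% were positive. With TMM library sizes the medians were 0.182 for the set, with 70.4% positive, and 0.001 for all retained genes, with 50.1% positive. Among the 741 pairs, some outside the 24 pairs above had a rho higher than those of the called pairs. Values picked as high were 0.808 for IDH3A and SUCLA2, 0.799 for the X-linked PDHA1 and PDK3 and 0.717 for IDH3A and DBT. Values picked as low were -0.733 for IDH3G and PCK2 and -0.727 for MDH2 and PDK3. Whether subunits of an enzyme covary more than other pairs was not tested. All these correlations share the same pools and library totals and are given as a description.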

How the data were processed

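RNA sequencing counts were taken from the table of raw counts that the authors deposited, which held 32637 genes in 27 pools, with all columns matched to a pool by number. Per the labels and the methods, the SMART-Seq v4 3' DE Kit was used for cDNA, and forward reads were trimmed with fastp, mapped to ARS-UCD2.0 with STAR, sorted with SAMtools and counted with featureCounts, and the versions are not given in the sources used here. The deposited counts were not normalized. Reads are not molecules, so the floor of 3 counts covers counting error only. The 27 columns differed beyond counting error, with a chi-square per degree of freedom of at least 23.9 for each pair of pools, and each pool was kept as 1 sample.

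CPM was calculated from column totals, and a gene needed 1 CPM in 12 pools to be retained. RefSeq gene positions (ARS-UCD2.0) were matched by symbol for 12265 of 12310 retained genes. Slopes on XIST, interferon tau, lineage balance (log2(CPM + 1)) and log2 total count, centred, were fitted with edgeR's quasi-likelihood test, with TMM normalization and Benjamini-Hochberg adjustment over all retained genes. Genes of a measure were fitted and adjusted with the others and then left out of the counts of genes tested and called. Correlations of log2(CPM + 1) used 100000 two-sided permutations of the pools, or all of them for 9 pools. The cell type markers, the further pathway genes, the members and the tests were chosen with earlier results of these data known. Named with values were all members under their role, with the 5 highest medians, the 3 widest and 3 narrowest quartile ratios, genes called in a fit, X-linked genes, both genes of the pairs with the highest and lowest rho, and IDH3A, DBT and ALDH7A1, which the study's own gene list holds, and, of further genes, those not retained or highest in level. Values had been seen when the further genes called in a fit were named, and 1 of these is not reported here. In simulated counts of 12310 genes, the XIST fit recovered 36 of 100 genes with a slope of 0.2 and 84 of 100 with a slope of 0.4, with 6 false calls. Alternatives covered normalization, the filter, DESeq2, pseudocounts, covariates and pools left out. The software was edgeR 4.0.16 and DESeq2 1.42.0 in R 4.3.3, and Python 3.11.15 with numpy 2.4.6, pandas 2.3.3, scipy 1.17.1 and matplotlib 3.10.9 were used.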

Additional observations from a re-analysis of the deposited data

How the results depend on the processing

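With all 24638 genes that had a count in any pool instead of the retained ones, calls were 1418 on XIST, 921 on interferon tau, with 2 of the set, 674 on lineage balance and 633 on total count. DESeq2 called 821 genes on XIST, 520 on interferon tau, with 2 of the set, and 452 on lineage balance. Without the 2 pools farthest from the median of the measure, 5 genes of the set were called on XIST, 90 genes were called on interferon tau and 65 on lineage balance, where 1 gene of the set, PC, passed (-0.80, edgeR adjusted p = 0.0362). Fewer markers in the lineage balance left 16 genes. Without library scaling, 0 genes of the set were called on interferon tau. The cause of these changes was not tested. Within the pools high and within the pools low in Y-linked transcripts (the latter chosen after seeing the data), which leave fewer pools, 0 genes and 0 of the set were called on XIST, and PDK3 (-0.098) and BCKDHB (0.33) changed sign in the low pools. Further settings chosen after seeing the data were interferon tau beside XIST, which left 184 genes and 2 of the set called, XIST beside interferon tau, which left 56 genes and 0 of the set, and leaving out each pool. Over the latter, calls on XIST were between 340 and 673 genes and between 5 and 12 of the set, calls on interferon tau between 40 and 374 and between 0 and 3, and called pairs between 2 and 4. Without the pools of highest and lowest total, 2 pairs were called. The median rho over pairs of the set was 0.182 with TMM library sizes and 0.15 for genes of at least 20 CPM. The other 50 values for whole comparisons, apart from pools left out in turn, kept their side of the threshold and moved by less than 1.5 times. For single genes, 118 such values were unchanged. These include the median CPM of each of the 41 genes with TMM library sizes, unchanged if moved by less than the standard deviation over pools. The rest of them were slopes that kept their direction and side of the threshold. A further 39 slopes kept their direction only and 2 were reversed. No relation to mitochondrially encoded transcripts was run, as 0 of the genes searched for were found in the table, and no level per transcript length was calculated. No paired analysis was possible because the labels give neither the treatment nor the fertilization replicate of a pool. At these depths, 3 counts were between 0.0678 and 0.285 CPM, which limits DLST, PDK4 and the lowest pools of ME1 and PCK2.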
